A study of Mus musculus with 12 samples.

Results

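The nicotinic acetylcholine receptor subunits are the proteins from which the receptor family of AZ6983 is built, and the genes described here are the 10 of them listed for the aorta by symbol: Chrna7, Chrna3, Chrna5, Chrnb4, Chrna2, Chrna4, Chrnb2, Chrna1, Chrnb1 and Chrne. All 10 had a row among the 25284 genes of the count table. The filter on low counts kept 15857 genes of the table, and 7 of the 10. Chrna5, Chrna4 and Chrne did not pass it, and their values are given without a model fit. RNA came from the thoracic aorta of 12 male ApoE-/- mice, 18 weeks old, on a high fat, cholesterol enriched diet, with 1 library for each mouse. The 6 AZ6983 mice (A1 to A6) received AZ6983, an agonist of the α7 receptor, from osmotic minipumps under the skin during 8 weeks, each day 50 µmol per kg. The 6 control mice (C1 to C6) carried pumps with the cyclodextrin and saline vehicle. Both groups lack a functional Apoe gene, so that every value here is from an atherosclerosis-prone animal, and no mouse with intact Apoe and no mouse without a pump was included. The comparison asks which subunits of the drug's receptor family the aorta transcribes and whether their transcripts differed after treatment.

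Nicotinic receptors are ion channels of the cell membrane that open when acetylcholine binds, and each is assembled from several subunits around a central pore. The α7 subunit, encoded by Chrna7, can form a channel by itself and is known for its part in the cholinergic control of cytokine release by macrophages. The α3 subunit, with β4 and in part α5, makes the receptor by which sympathetic and parasympathetic ganglia receive their input. The α4 and β2 subunits make the most abundant receptor of the brain, where α2 is also found. The α1, β1 and ε subunits, together with δ, form the receptor of the adult neuromuscular junction.

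Counts on genes ran from 23810036 to 35864666 per mouse, at which 3 counts equal 0.0836 to 0.126 CPM (counts scaled by library size). Apoe itself had 117 to 311 counts per mouse. Smooth muscle genes were abundant in every library, with a mean log2 CPM of 9.39 to 10.05 over 7 markers, as the label of aorta requires. Brown fat markers were abundant too, at a mean log2 CPM of 7.77 to 8.44 in control and 7.21 to 8.73 in AZ6983 mice. Adipocyte markers stood at 6.31 to 7.09 and 6.39 to 6.93. The levels given here are thus those of aorta with fat, not of the vessel wall alone. Reads on no gene made up 8.02% to 12.7% of the table's reads in control mice and 11.2% to 14.9% in AZ6983 mice. Mouse A4 stood apart in thymocyte and T cell markers, with a mean of 6.75 log2 CPM against −1.50 to 2.26 in the other 11 mice. The columns of the count table carry a running number after that of the mouse, 3 to 7 and 12 for controls and 1, 2 and 8 to 11 for AZ6983 mice. What it stands for is not given in the sources used here, and its part in the group differences was not tested. The library of A1 was matched to its mouse by 3 of the 4 digits of its number.

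Per transcript length, β1 had the highest mean level of the 10 and the α3 gene the widest range. Levels between genes are given as TPM (counts divided by the merged exon length and scaled to the same total in every mouse), as mean ± SD over the 12 mice. The β1 gene, Chrnb1, was at 5.06 ± 1.04 TPM and lay above 34.5% of the genes tested. Chrna3 followed at 4.82 ± 7.19 TPM. For Chrna3 the SD exceeds the mean, the median was 1.89 TPM, and Chrnb1 was the higher of the pair in 9 of 12 mice. Next came Chrnb2 at 1.44 ± 0.77 TPM and Chrna7 at 1.15 ± 0.741 TPM, with Chrnb2 above Chrna7 in 10 of 12 mice. Chrnb4 was at 1.07 ± 1.51 TPM and Chrna5 at 0.664 ± 0.957 TPM. Chrna2, at 0.524 ± 0.154 TPM, and Chrna1, at 0.471 ± 0.124 TPM, had at least 7 counts in every mouse, with Chrna2 the higher in 8 of 12. Chrne, at 0.0358 ± 0.042 TPM, and Chrna4, at 0.0218 ± 0.0261 TPM, were near the limit of what a few counts can show.

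The order was not firm. From Chrnb1 down to Chrna1 each pair of neighbours differed in mean by less than the larger of their SDs, Chrna1 exceeded Chrne in 12 of 12 mice, and by the median Chrna5 fell behind Chrna2 and Chrna1 to 0.242 TPM. With the longest transcript in place of the merged exons the means ran from 5.02 TPM for Chrnb1 to 0.0204 TPM for Chrna4, and Chrna7 rose to 1.56 TPM, beside Chrnb2 at 1.60 TPM.

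**Figure D1:**
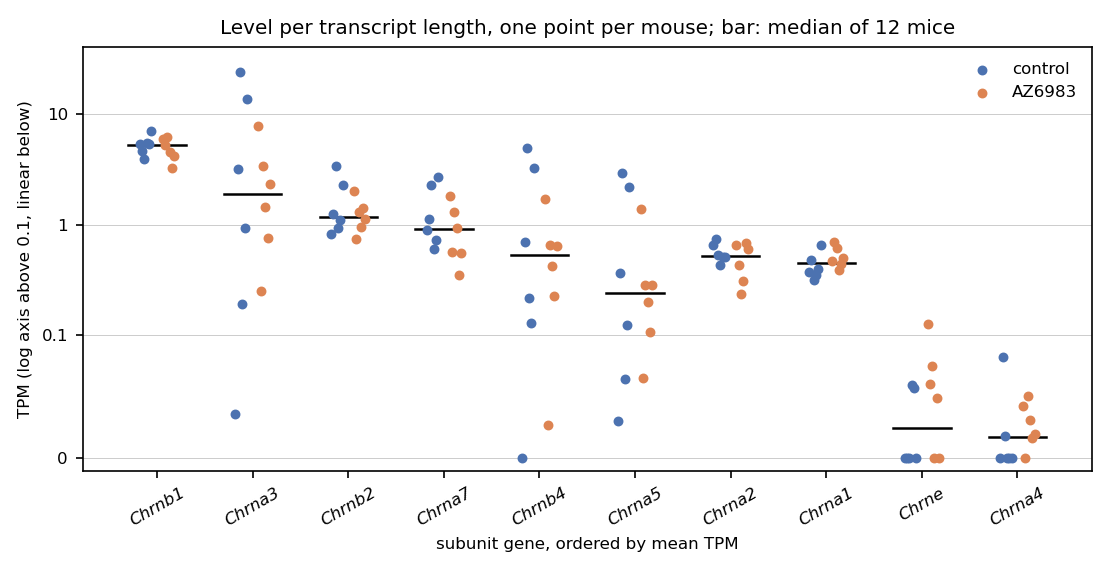
Level of the 10 subunit genes in TPM (vertical axis, logarithmic above 0.1 and linear below), with a point for each control mouse (blue) and AZ6983 mouse (orange) and a bar at the median of the 12 mice. Chrnb1 is narrow around its median of 5.26 TPM, whereas Chrna3 runs from 0.0364 to 23.9 TPM.

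The ganglionic subunits were the most variable of the family, and they rose and fell together from mouse to mouse. Chrna3 had 2, 161, 1362, 10, 51 and 676 counts in C1 to C6 and 380, 13, 140, 98, 48 and 124 counts in A1 to A6. Mice C3, C6 and A1 were high and C1, C4 and A2 were near 0. All AZ6983 mice lay within the range of the controls, which held both the lowest mouse, C1, and the highest, C3. In a bulk sample, fewer cells of a type and less RNA per cell cannot be told apart. Chrna5, whose subunit joins α3 receptors without binding acetylcholine on its own, had 98, 64 and 40 counts in C3, C6 and A1 and 1 to 11 in the other mice. Chrnb4, the β partner of α3 in ganglia, had 197, 113 and 59 counts in the same 3 mice and 0 to 25 in the others. The 0 of Chrnb4 in C1 allows up to 0.105 CPM. Over the 12 mice, Pearson's r of log2 CPM was 0.96 between Chrna3 and Chrnb4, 0.94 between Chrna3 and Chrna5 and 0.95 between Chrna5 and Chrnb4 (Spearman's rho 0.97, 0.99 and 0.99), given as a description of 12 libraries that differ in depth. Their proportions varied less than their levels. In the 6 mice with at least 100 counts of Chrna3, Chrnb4 stood at 19.2% to 27.4% of the Chrna3 level in TPM and Chrna5 at 8.42% to 17.7%.

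The 3 genes are neighbours on chromosome 9 (GRCm38), where Chrna5 lies on the plus strand at chr9:54980880-55007779, Chrna3 on the minus strand at chr9:55010111-55026562 and Chrnb4 on the minus strand at chr9:55028154-55048779. Only 2331 bases separate Chrna5 from Chrna3 and 1591 bases Chrna3 from Chrnb4, and none of their exons overlap in GENCODE M21. The 250 bases before a RefSeq start of each gene (GRCm38.p6, 5′ to 3′ on the gene's strand) are printed because these genes move together, with that of Chrna7, which moved with them in part. By the GENCODE M21 positions, the Chrna5 window and most of the Chrnb4 window lie inside the gene. The Chrna7 window overlaps its gene in part, and that of Chrna3 lies before the gene. Capitals mark a GC box (GGGCGG, or CCGCCC on the other strand) or the CAGCTG form of the E-box, the only form searched.
Chrna3, chr9:55026563-55026812, minus strand: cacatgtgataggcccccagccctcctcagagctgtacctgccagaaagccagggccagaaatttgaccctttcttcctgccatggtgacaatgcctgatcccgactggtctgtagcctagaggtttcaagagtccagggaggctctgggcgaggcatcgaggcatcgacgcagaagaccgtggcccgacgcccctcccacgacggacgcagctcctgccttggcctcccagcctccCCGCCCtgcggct
Chrnb4, chr9:55048545-55048794, minus strand: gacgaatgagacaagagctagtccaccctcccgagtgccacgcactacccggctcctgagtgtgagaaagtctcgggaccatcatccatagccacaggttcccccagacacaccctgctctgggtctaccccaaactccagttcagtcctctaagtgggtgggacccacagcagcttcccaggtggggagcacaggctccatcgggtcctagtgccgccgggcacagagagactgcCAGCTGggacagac
Chrna5, chr9:54981238-54981487, plus strand: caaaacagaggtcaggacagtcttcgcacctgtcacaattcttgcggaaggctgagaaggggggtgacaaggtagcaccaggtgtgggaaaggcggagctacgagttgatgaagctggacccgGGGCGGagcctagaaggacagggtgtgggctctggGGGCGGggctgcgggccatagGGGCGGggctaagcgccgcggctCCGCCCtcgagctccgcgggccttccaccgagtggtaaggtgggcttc
Chrna7, chr7:63212527-63212776, minus strand: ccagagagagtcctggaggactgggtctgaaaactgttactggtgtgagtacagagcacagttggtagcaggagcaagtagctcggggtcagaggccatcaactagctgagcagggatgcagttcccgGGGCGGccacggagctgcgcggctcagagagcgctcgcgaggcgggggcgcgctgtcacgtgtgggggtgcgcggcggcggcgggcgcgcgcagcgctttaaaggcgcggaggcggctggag
The letters of a GC box stand 4 times before this start of Chrna5, 1 time before Chrna3 and 1 time before Chrna7. The window before the other RefSeq start of Chrna5, which lies outside the gene as annotated in GENCODE M21, has 0. Among 32851 promoter windows of the same length 32.7% hold them. The letters CAGCTG were found only before Chrnb4, and 13% of all windows hold them. Other forms of the E-box were not searched, so their absence from the other windows is not implied. A TATA box (TATAAA, either strand), held by 12.4% of windows, was in none of these. The windows thus differ from each other in these letters, and a match is a description of the sequence only.

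Transcripts of sympathetic neurons varied in the same way. The neuronal marker list has 10 genes, among them Th and Dbh, enzymes of noradrenaline synthesis. All 10 had a row and 9 passed the filter, Phox2a being the exception. Th had 3806, 1848 and 1348 counts in C3, C6 and A1, 5 in C1 and 29 to 403 in the remaining mice. Dbh had 5531, 3016 and 1769 counts in the same 3 mice and 5 in C1. Summed over the 10 markers the level was 36.9 to 792 CPM in control mice and 41.7 to 310 CPM in AZ6983 mice. Phox2a and Snap25 were at 0 in C1. The neuron score (mean log2 CPM of the 9 markers) spanned −0.86 to 5.88 among controls and 0.56 to 4.48 under AZ6983, and its group means differed by −0.12 (exact permutation test, two-sided, p = 0.918).

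Chrna3 followed this score with Pearson's r = 0.99 (permutation p = 1e-05, the smallest the draws allow) and Spearman's rho = 0.99 (permutation p = 1e-05). For Chrna5, r was 0.97 (permutation p = 1e-05) and rho 0.99 (permutation p = 1e-05), and for Chrnb4 r was 0.98 (permutation p = 2e-05) and rho 0.99 (permutation p = 2e-05). Without C1 and C3, the mice farthest from the median score, r was 0.99 for Chrna3, 0.97 for Chrna5 and 0.95 for Chrnb4. Within control mice these values were 0.99, 0.98 and 0.98, and within AZ6983 mice 0.99, 0.96 and 0.96. They belong to 96 relations computed, of 8 subunit genes with 12 marker lists, and after Benjamini-Hochberg adjustment over the 96 the p of Chrna3 and Chrna5 was 0.00048 and that of Chrnb4 0.00064, for r and for rho alike.

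**Figure D2:**
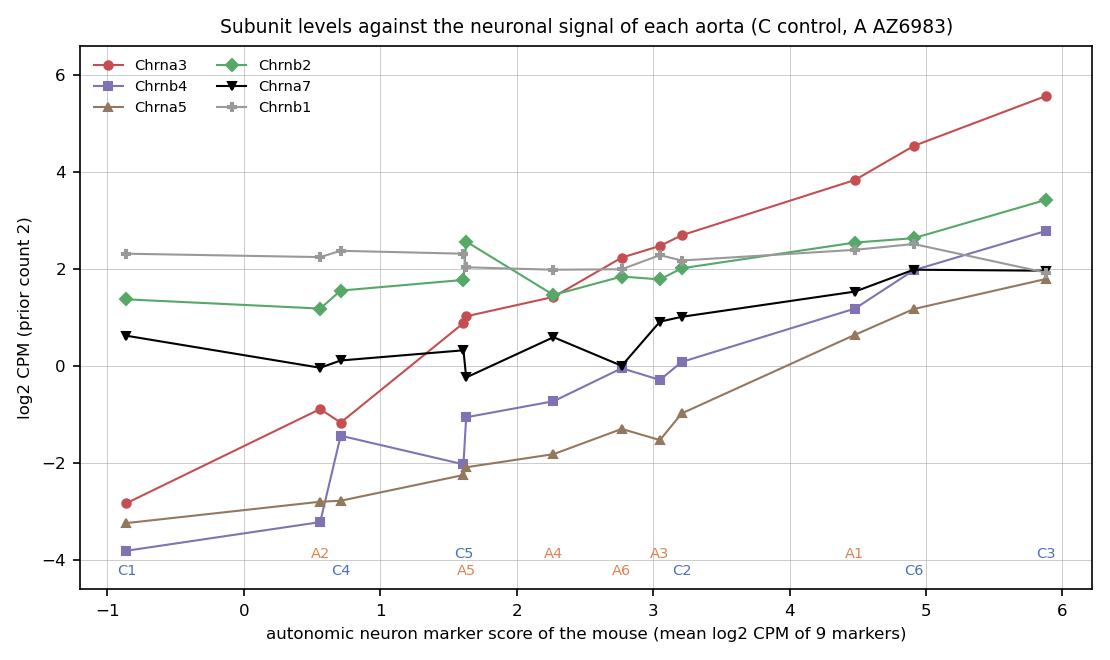
Log2 CPM of 6 subunit genes (vertical axis) against the autonomic neuron score of each mouse (horizontal axis, mean log2 CPM of 9 markers), with mouse names at the foot. Chrna3, Chrnb4 and Chrna5 climb along the whole axis, Chrna7 and Chrnb2 are highest at its upper end, with A5 high for Chrnb2 as well, and Chrnb1 shows no climb.

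Chrna7, the gene of the drug's target, was transcribed in every aorta at a low level. It was highest in the mice with the highest neuron score and was also measured where the ganglionic subunits were near 0. The gene lies on the minus strand at chr7:63098692-63212569 and its exons overlap no other gene. It had 42, 49, 111, 27, 34 and 114 counts in C1 to C6 and 76, 25, 46, 54, 19 and 25 counts in A1 to A6. The same 3 mice, C3, C6 and A1, were high at 3.83, 3.88 and 2.82 CPM, and the other 9 lay between 0.776 and 1.94 CPM. In C1, where Chrna3 had 2 counts, Chrna7 still had 42, or 1.46 CPM. In C4 and A2, with 10 and 13 counts of Chrna3, it had 27 and 25. With the neuron score its r was 0.79 (permutation p = 0.00203, adjusted p = 0.0325) and rho 0.75 (permutation p = 0.00694, adjusted p = 0.133). Leaving out C1 and C3 gave r = 0.89, controls alone 0.87 and AZ6983 mice alone 0.84. Its r with the macrophage score was 0.20 (permutation p = 0.525, adjusted p = 0.937), with rho = 0.20 (permutation p = 0.529, adjusted p = 0.958), which passed no threshold.

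Under AZ6983 Chrna7 averaged 1.44 ± 0.779 CPM and in controls 2.21 ± 1.31 CPM (SD over 6 mice each), with a median of 1.7 and a highest value of 3.88 CPM in controls and of 1.18 and 2.82 CPM after AZ6983. The groups overlapped, and 3 of 6 AZ6983 mice were below every control. The fitted log2 fold change, AZ6983 over control, was −0.62 with a standard error of 0.418 (edgeR's quasi-likelihood test with Benjamini-Hochberg adjustment, adjusted p = 0.591). Without C3, C6 and A1, the 3 mice with the highest neuron score, it was −0.26 (edgeR, standard error 0.299, adjusted p = 0.761). With the neuron score in the model of all 12 mice it was −0.51 (standard error 0.245, adjusted p = 0.489 in edgeR, unadjusted p = 0.0581). Because Chrna7 varied with this score, neither fit can separate treatment from what the score carries. Adding the share of reads outside genes to the model gave −0.29 (standard error 0.553). The endothelial markers differed between the groups by little and not all in the same direction, 4 of the 6 being higher in mean log2 CPM under AZ6983 and 2, Pecam1 (by −0.06) and Erg (by −0.19), lower. Their score was higher by 0.10 under AZ6983 (exact permutation test, two-sided, p = 0.0238, unadjusted over the 12 lists), with all 6 markers measured, none at 0, and summed levels of 956 to 1130 CPM in controls and 1040 to 1240 CPM under AZ6983. The r of Chrna7 with it was −0.68 (permutation p = 0.0144, adjusted p = 0.172) and rho −0.70 (permutation p = 0.0147, adjusted p = 0.161), with −0.52 without A5 and A6, −0.73 within controls and −0.60 within AZ6983 mice. The part of these markers in the Chrna7 values was not tested.

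Chrnb2, the β subunit of the main brain receptor, was also above its floor in every mouse and highest in C3. It lies on the minus strand at chr3:89746195-89764632, and 16.3% of its exon bases are also exon bases of Adar on the opposite strand. If strand was not used, reads of the overlap could not be assigned by position. How such reads were counted is not given in the sources used here. Its counts were 72, 100, 309, 77, 96 and 180 in C1 to C6 and 155, 61, 86, 101, 143 and 94 in A1 to A6. Mice C3, C6 and A1 again had the most counts, with A5 close behind and, per library size, above A1, and no mouse had fewer than 61. With the neuron score r was 0.83 (permutation p = 0.00078, adjusted p = 0.0187) and rho 0.85 (permutation p = 0.0011, adjusted p = 0.0264), r being 0.71 without C1 and C3, 0.95 within controls and 0.57 within AZ6983 mice. Its log2 fold change came to −0.34 (edgeR, standard error 0.371, adjusted p = 0.749), and to 0.04 without mouse C3.

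Its brain partners were scarce. Chrna4 (chr2:181018380-181043546, minus strand) had 0 counts in 5 of 12 mice and at most 4, in C2. Chrna2 (chr14:66135039-66152948, plus strand) had 16 to 27 counts in control mice and 7 to 31 in AZ6983 mice, at 0.772 ± 0.184 and 0.704 ± 0.362 CPM (SD over 6 mice each). Its levels overlapped, with the lowest and the highest mouse, A3 and A5, both treated. Its r with the neuron score was −0.04 (permutation p = 0.895, adjusted p = 0.971; rho 0.04, permutation p = 0.903, adjusted p = 1). The largest r of Chrna2, 0.66 with brown fat markers, fell to 0.41 without A4 and A5 (permutation p = 0.0191, adjusted p = 0.172; rho 0.62, permutation p = 0.0348, adjusted p = 0.267).

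Of the subunits of the neuromuscular receptor, β1 was the steadiest member of the family and ε was all but absent. Chrnb1 (chr11:69784036-69795943, minus strand) had 108 to 165 counts in control mice and 98 to 146 in AZ6983 mice. Its highest CPM was 1.51 times its lowest. Chrna1 (chr2:73563215-73580338, minus strand), the gene of the subunit that binds acetylcholine in this receptor, had 15 to 27 and 19 to 30 counts. Chrne (chr11:70614883-70619216, minus strand) had 7 counts in all 12 mice together, at most 2 in any, and Chrnd, the δ subunit gene, had 8. Skeletal muscle markers nevertheless differed widely. Their score ran from −0.93 in C4 to 5.36 in C2, with all 10 markers measured and none at 0, and their summed level was 5.88 to 577 CPM in controls and 17.8 to 577 CPM under AZ6983. Chrna1 had 20 counts in C2 and 15 in C4. With this score Chrna1 had r = 0.45 (permutation p = 0.139, adjusted p = 0.548) and rho = 0.38 (permutation p = 0.226, adjusted p = 0.643). Chrnb1 had r = −0.49 (permutation p = 0.106, adjusted p = 0.486) and rho = −0.47 (permutation p = 0.127, adjusted p = 0.521).

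The marker list that Chrnb1 followed most closely was that of macrophages, with r = 0.80 (permutation p = 0.00191, adjusted p = 0.0325) and rho = 0.71 (permutation p = 0.0116, adjusted p = 0.159). Without A5 and C3 r was 0.73, and it was 0.93 within controls and 0.81 within AZ6983 mice. The relation was not particular to macrophage markers. With fibroblast markers r was 0.65 (permutation p = 0.0197, adjusted p = 0.172), and 0.78 without A2 and C6. With smooth muscle markers r was 0.61 (permutation p = 0.0299, adjusted p = 0.239), and with Schwann cell markers −0.60 (permutation p = 0.0382, adjusted p = 0.258). The macrophage score itself covered only 6.23 to 6.85 in control and 6.04 to 6.92 in AZ6983 mice, with all 7 markers measured and none at 0. For Chrna1 the largest r was 0.57, with fibroblast markers (permutation p = 0.0525, adjusted p = 0.297; rho 0.46, permutation p = 0.135, adjusted p = 0.521), and it was 0.14 without A2 and C6. Of the 96 relations, 6 passed an adjusted p of 5% for r, all of them positive: the 5 with the neuron score (Chrna3, Chrna5, Chrnb4, Chrnb2 and Chrna7) and that of Chrnb1 with macrophage markers. Between the groups, the scores of the 12 lists differed with unadjusted p from 0.0238, for endothelium, to 0.985, for cardiac muscle, in exact permutation tests.

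**Figure D3:**
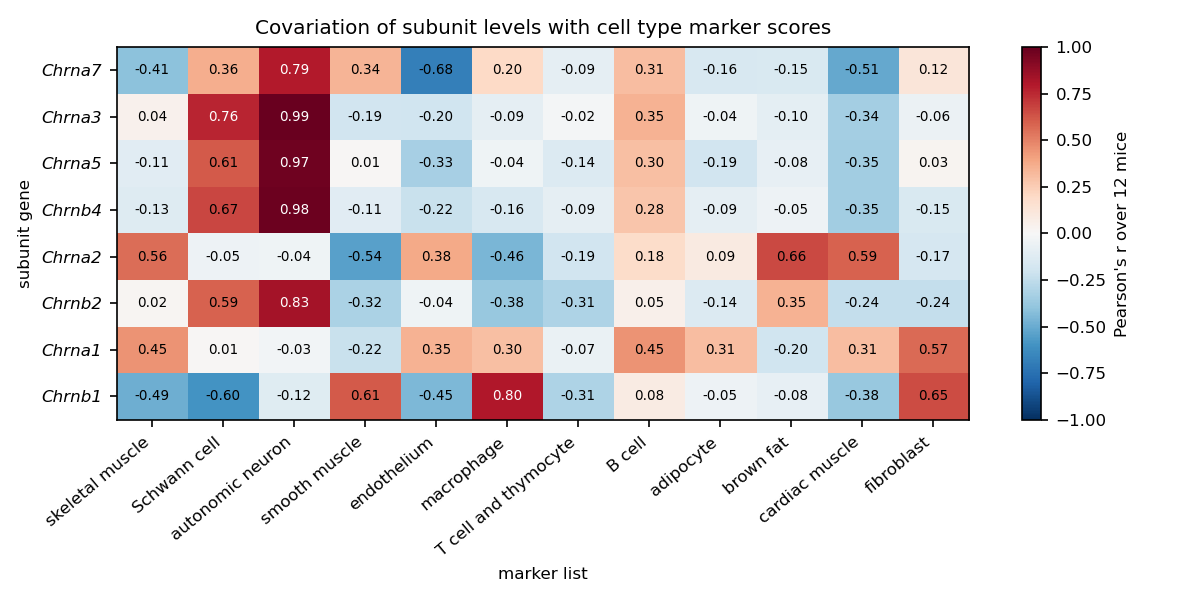
Pearson's r over 12 mice between the log2 CPM of 8 subunit genes (rows) and the scores of 12 cell type marker lists (columns), from −1 (blue) to 1 (red). The autonomic neuron column holds 0.99, 0.97 and 0.98 for Chrna3, Chrna5 and Chrnb4, and −0.12 for Chrnb1, whose highest value is 0.80 with macrophage markers.

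None of these genes passed a test for a difference between AZ6983 and control mice. In edgeR, 0 of the 7 tested subunit genes passed 10% FDR, where 0% of the 15857 genes tested did. An unadjusted p under 0.05 was found for 0 of the 7, where 10.2% of all genes tested had it. DESeq2 called 0 of the 8 subunit genes to which it gave an adjusted p and 0.523% of all, and limma-voom called 0 of 7. For 0 of the 10 did the groups not overlap, as they did for 0.41% of the genes tested. The log2 fold change was below 0 for 6 of the 7, with a median of −0.34, beside 47.6% of all genes tested below 0 and a median of 0.01. Without C3, C6 and A1 it was below 0 for 3 of the 7, with a median of 0.15, and without C3 alone the median was −0.19. These mice were picked by the neuron score, and the high controls C3 and C6 leave with only A1 of the treated mice. For genes that follow the score an upward shift follows in large part from that choice, so the fit cannot decide on treatment. In limma-voom, and with the neuron score in the model, 5 of the 7 were below 0 with a median of −0.12.

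The largest changes belonged to the ganglionic genes, and these depend on how the mice are averaged. Chrna3 averaged 13.1 ± 18.7 CPM in controls and 4.88 ± 4.87 CPM under AZ6983 (SD over 6 mice each), for which edgeR fitted −1.43 on the log2 scale (standard error 1.1, adjusted p = 0.632). On the mean of log2 CPM C3 weighs less and C1, at −2.83 from 2 counts, weighs more. There the groups stood at 1.61 and 1.68 and differed by 0.07 (exact permutation test, two-sided, p = 0.957). Without C3, C6 and A1 the log2 fold change of Chrna3 was 0.50 (standard error 0.969), and with the neuron score in the model it was 0.18 (standard error 0.198). For Chrnb4, at 2.02 ± 2.74 and 0.801 ± 0.742 CPM (SD over 6 mice each), it was −1.33 (edgeR, standard error 1.03, adjusted p = 0.632), and −0.01 (standard error 0.358) with the neuron score in the model. Chrna3 (r = 0.99) and Chrnb4 (r = 0.98) nearly repeat this score. With it in the model, values near 0 and small standard errors follow in large part by construction. A treatment effect on the neuronal signal as a whole would be removed as well. The third gene of the cluster, Chrna5, at 1.04 ± 1.41 CPM in controls and 0.424 ± 0.528 CPM under AZ6983 (SD over 6 mice each), differed by −0.43 in mean log2 CPM (exact permutation test, two-sided, p = 0.68).

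The steadier genes bound the change more tightly. For Chrnb1, at 4.77 ± 0.641 CPM in controls and 4.4 ± 0.537 CPM under AZ6983 (SD over 6 mice each), edgeR fitted −0.12 on the log2 scale (standard error 0.123, adjusted p = 0.729). Chrna1 was at 0.667 ± 0.155 and 0.825 ± 0.173 CPM (SD over 6 mice each), with the only log2 fold change above 0 among the 7, 0.30 (edgeR, standard error 0.203, adjusted p = 0.588). It was −0.06 once the share of reads outside genes was a covariate. Chrna2 had −0.14 (edgeR, standard error 0.325, adjusted p = 0.896). Chrna4 and Chrne, with at most 4 and 2 counts in a mouse, allow no statement. Exact permutation tests on the mean log2 CPM of the 10 genes, unadjusted, gave p between 0.113, for Chrna1, and 0.957, for Chrna3, where 0.00216 is the smallest that 6 mice against 6 allow.

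**Figure D4:**
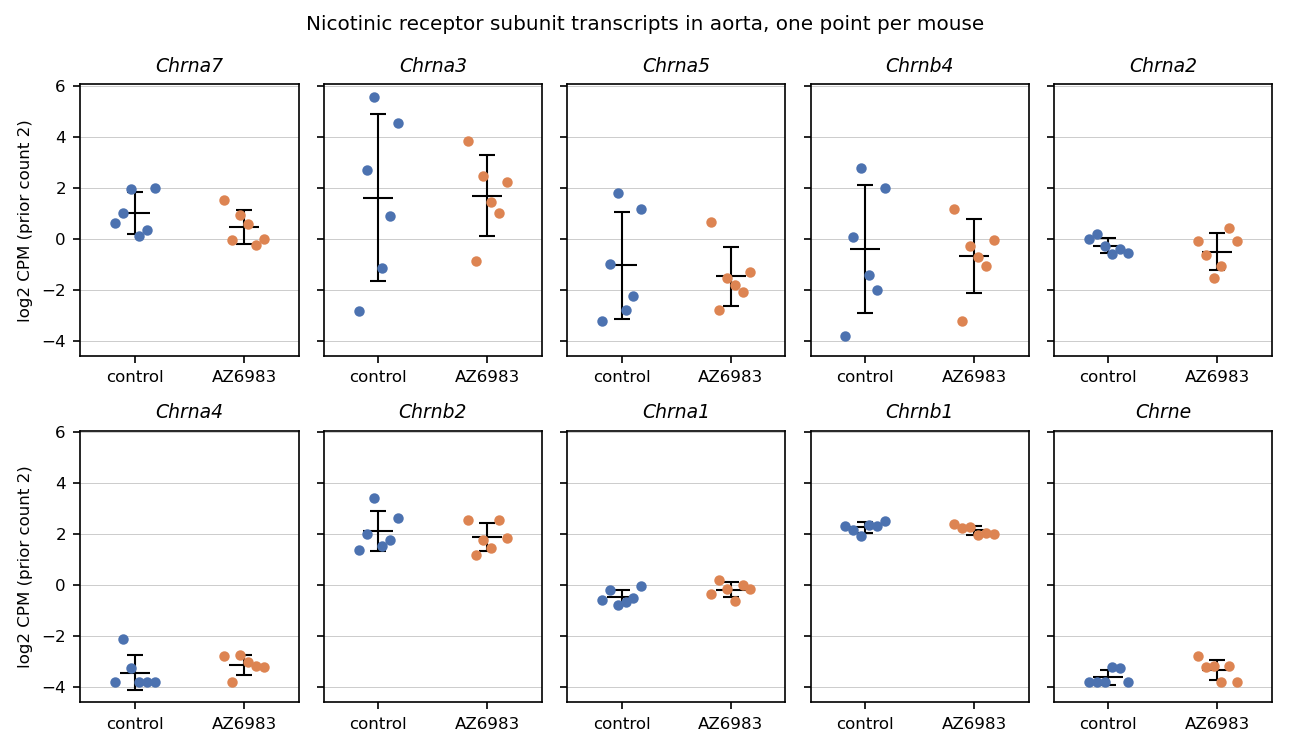
Log2 CPM with a prior count of 2 (vertical axis) of the 10 subunit genes in 6 control mice (blue) and 6 AZ6983 mice (orange), with mean and SD in black. The groups overlap in every panel, and Chrna3, Chrna5 and Chrnb4 have the widest spread.

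**Figure D5:**
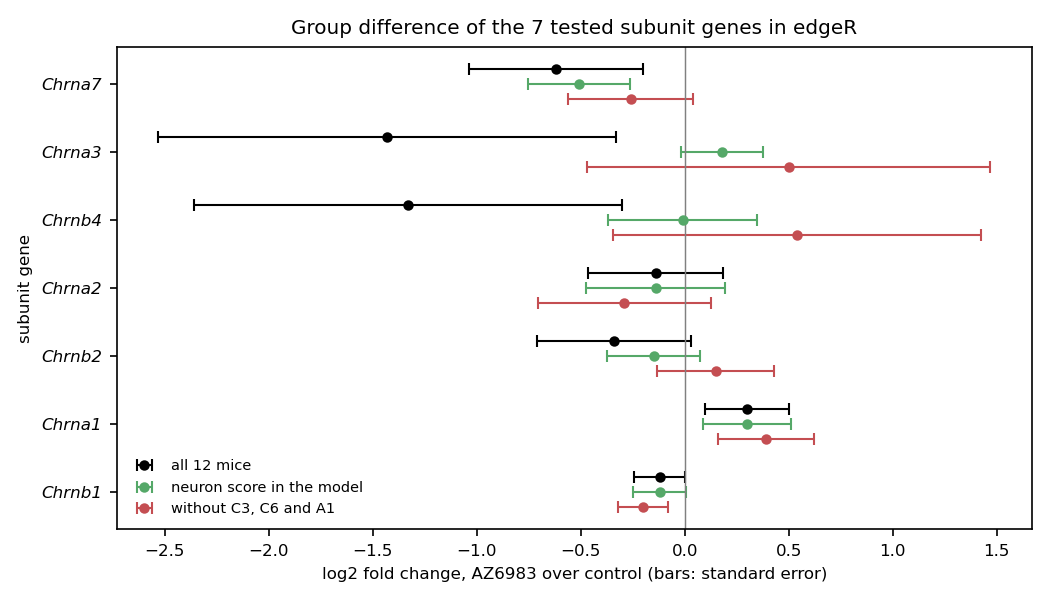
Log2 fold change of AZ6983 over control with its standard error (horizontal axis) for the 7 tested subunit genes, in all 12 mice, with the neuron score in the model, and without C3, C6 and A1. Chrna3 moves from −1.43 to 0.18 and 0.50, while Chrnb1 stays between −0.20 and −0.12. Both added fits rest on the neuron score, which Chrna3 itself follows.

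Genes that work with these receptors did not pass the threshold either. Over the 4 lists of partners with tested genes, 0 of 17 genes passed 10% FDR in edgeR, 0 of the 19 with an adjusted p in DESeq2 and 0 of 17 in limma-voom, where edgeR called 0% and DESeq2 0.523% of all genes. In edgeR 2 of the 17, or 11.8%, had an unadjusted p under 0.05, near the 10.2% of all genes tested. Chaperones and modulators of the Ly6 family had 6 tested genes, 2 with a log2 fold change above 0 and 4 below, with a median of −0.25. Their most abundant members, by CPM, were Ly6e, at 122 ± 6.87 CPM in controls and 132 ± 23.6 CPM under AZ6983, and Lynx1, a membrane-anchored modulator of nicotinic receptors, at 105 ± 12.1 and 92.2 ± 11.6 CPM (SD over 6 mice each). Ric3, a chaperone that promotes assembly of α7, was chosen after its values were seen. It was at 37.0 ± 4.53 CPM in controls and 29.9 ± 4.28 CPM under AZ6983 (SD over 6 mice each), and 4 of 6 AZ6983 mice lay below every control. Its log2 fold change was −0.31 (edgeR, standard error 0.104, unadjusted p = 0.011, adjusted p = 0.45), and −0.12 once the share of reads outside genes was a covariate.

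Acetylcholine handling was represented mainly by breakdown, with 4 tested genes, 3 with a log2 fold change above 0 and 1 below, and a median of 0.08. Bche, butyrylcholinesterase, was at 104 ± 11.5 CPM in controls and 104 ± 11 CPM under AZ6983 (SD over 6 mice each), which is a difference of 0.01 on the log2 scale (standard error 0.0873). Ache, acetylcholinesterase, had 564, 401 and 207 counts in C3, C6 and A1 and 16 to 110 in the other mice, the same 3 mice as for the ganglionic subunits. It was the gene of this list with a log2 fold change below 0, at −1.11 with all mice (standard error 0.843), −0.38 without C3, −0.19 with the neuron score in the model and 0.47 without C3, C6 and A1. Chat, the enzyme that makes acetylcholine, had at most 3 counts in any mouse, and its vesicle transporter Slc18a3 likewise at most 3. Of the muscarinic receptors, which are coupled to G proteins, Chrm2 had 378, 319 and 162 counts in C3, C6 and A1 and 22 to 137 elsewhere, and Chrm3 had 20 to 47 throughout. These were the 2 tested of 5 and both had log2 fold changes below 0, with a median of −0.62. That of Chrm2 was −0.94 with all mice (edgeR, standard error 0.704, adjusted p = 0.624), −0.44 without C3, −0.60 without C6, −0.19 with the neuron score in the model and 0.08 without C3, C6 and A1. Ache and Chrm2 were both highest in C3, C6 and A1. For them too, fits with the score or without these mice cannot decide on treatment. The neuromuscular junction list had 5 tested genes, 2 above and 3 below 0 with a median of −0.01, led by Agrn at 68.7 ± 7.19 and 70.2 ± 9.75 CPM and Lrp4 at 11.9 ± 2.38 and 13.0 ± 2.37 CPM (SD over 6 mice each). Of the other subunit genes, Chrna10 had at most 2 counts and Chrnb3 at most 2, and Chrna6 and Chrng had no row in the count table.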

How the data were processed

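RNA depleted of ribosomal RNA was made into stranded libraries and sequenced from both ends. What the authors deposited are raw counts by gene symbol. The submitters' notes name CASAVA 1.8.2, STAR 2.5.2b, HTSeq 0.6.1p1 and mm10 without stating roles, and the annotation and strand setting are not given in the sources used here. The 3 rows that name no gene were left out of library sizes. They hold, per mouse, 8.02% to 14.9% (no gene), 18.1% to 23.2% (not unique) and 0.606% to 0.698% (ambiguous) of the table's reads.

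The members and lists were chosen with earlier results of these data known. Counts of all genes were fitted with edgeR 4.0.16 in R 4.3.3 (quasi-likelihood test without covariates, TMM scaling and the filterByExpr filter), adjusted by Benjamini-Hochberg over 15857 genes at 10% FDR, the study's threshold. Standard errors are the unshrunken log2 fold change over the square root of F. DESeq2 1.42.0, the study's tool, and limma-voom (limma 3.58.1) were alternatives, with other normalization, no filter, a covariate, 5% FDR and each mouse left out. Fits with the neuron score, or without the 3 mice highest in it, were added after seeing the data. They rest on a score that several subunit genes themselves follow, so they cannot decide whether treatment changed those genes. Log2 CPM used a prior count of 2. TPM used GENCODE M21 (GRCm38) lengths for 24048 genes, which hold 98.3% of counts. Correlations used 100000 permutations, and group differences the 924 assignments of mice. The steps were tested on simulated data. There edgeR recovered 66 of 90 genes changed 2-fold and 104 of 110 changed 4-fold, with 13 false calls. DESeq2 recovered 73 and 108 of them with 70 false calls, and limma-voom 67 and 104 with 11. Simulated counts were drawn for each gene on its own, with no signal shared by the genes of a mouse. These rates therefore do not carry over to subunit genes that vary with the neuron score. Promoter sequence came from RefSeq.

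Named were the 10 members, the 2 most abundant genes of each partner list, genes most like each tested member by r, and the marker list with the largest r. Ric3, Colq, Chat, Slc18a3, Chrnd, Chrna10 and Chrnb3, and the relations to endothelium, skeletal muscle and (for Chrna7) macrophage markers, were named after their values were seen. So were those of Chrnb1 to fibroblast, smooth muscle and Schwann cell markers. The values of 1 marker gene are not reported here. Labels and methods name no batch, the meaning of the running number in the column names is not given, and each library is a mouse of its own. Counts on genes per mouse are given with the results, and floors of 3 counts cover counting error only.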

Additional observations from a re-analysis of the deposited data

Results flagged for a closer look

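Over 68 groups of 6 mice (subunit genes, partner genes named and marker scores), 7 held a mouse far outside its group, 4 of them being mouse A4. About 3.4 would by chance if values were normally spread. Groups at the floor, such as Chrna4, are not, so the 7 are not read as an excess. Chrna9, a subunit gene outside the list, was at 2.98 log2 CPM in A4, with the other AZ6983 mice at −3.81 to −1.86, which is 293 counts against 0 to 5 in every other mouse. Colq, the collagen tail of acetylcholinesterase, was at 3.05 log2 CPM in A4 (the other AZ6983 mice −2.13 to −0.36), 309 counts against 3 to 22 elsewhere. Its log2 fold change in edgeR was 1.93 with all mice (standard error 0.892, adjusted p = 0.487) and 0.01 without A4 (standard error 0.476, adjusted p = 0.995). Ly6e was at 7.48 log2 CPM in A4 (the others 6.81 to 7.02). The T cell and thymocyte score of A4 was 6.75 (the others −0.40 to 2.26), with all 8 markers in the table, 6 of them tested, Ptcra at 0 in 7 other mice and Dntt in 1. The summed level reached 1020 CPM among AZ6983 mice and 28.3 CPM among controls, and its part in the values of Chrna9, Colq and Ly6e was not tested.

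Chrna4 was at −2.12 log2 CPM in C2 and at −3.81 to −3.24 in the other controls, a difference of 4 counts against at most 1. The endothelium score was 6.85 in C6, with the other controls at 6.96 to 6.99. The brown fat score was 7.77 in C6, with the other controls at 8.25 to 8.44.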

How the results depend on the processing

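No subunit or partner gene passed 10% FDR in any fit run, the 12 fits without a mouse included. Over the whole table edgeR called 0 genes with all mice, 0 to 27 without a mouse (27 without A5, 1 without A1 and 1 without C6), 3 without C3, C6 and A1, and DESeq2 92. The log2 fold change of Chrna7 kept its sign in every fit, at −0.92 to −0.38 without a mouse, and without A1 its unadjusted p was 0.0427. Signs turned for Chrna3 (0.15 in limma-voom, 0.18 with the neuron score, 0.50 without C3, C6 and A1), Chrnb4 (0.54 without them), Chrnb2 (0.15 without them, −0.50 to 0.04 without a mouse), Chrna2 (−0.40 to 0.02 without a mouse) and Chrna1 (−0.06 with the no-gene share), and the cause was not tested. Of 212 alternative values 199 were labelled the same as the main one, 8 reversed and 5 moved. For counts of calls, many of them 0 beside 0, the label meant an equal or near count. For mean TPM it meant a difference below the SD, and for the rest the same direction and side of the threshold. Without a mouse Chrna3 ran from −2.12, without A1, to −0.37, without C3, and Chrnb4 from −1.94 to −0.41. At 5% FDR edgeR with all mice called 0 genes, DESeq2 34, and the fits without A5, without A1, without C6 and without C3, C6 and A1 called 6, 1, 1 and 3. Counts under 10, as for Chrne and Chrna4, allow no statement on treatment. No paired analysis was possible because the mouse numbers of the groups are not shared.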

Other observations

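Among 15856 other tested genes, those most like each subunit gene by Pearson's r of log2 CPM over the 12 mice are given as a description, with no test, since they are the extremes of many. For Chrna3 they were Scn9a (r = 0.997), a voltage-gated sodium channel of peripheral neurons, Pirt (0.997) and Slc7a14 (0.995). For Chrnb4 they were Agtr1a (0.982), an angiotensin receptor, Ppp2r2c (0.98) and Gap43 (0.98), the last a growth cone protein of the neuronal list. For Chrnb2 they were Zdhhc2 (0.962), Sybu (0.958) and Sez6l2 (0.958).

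For Chrna7 the nearest were Snx32 (r = 0.966, Spearman's rho 0.94), Slc22a17 (0.954, rho 0.94), Cntnap5a (0.951, rho 0.87), Acsbg1 (0.946, rho 0.90) and Ube2n (0.945, rho 0.95). For Chrnb1 they were Ptchd4 (0.918), Rilpl2 (0.918) and Dnase2a (0.904), the last a lysosomal nuclease. For Chrna1 they were Ssh1 (0.964), Auts2 (0.963) and Nfix (0.948), and for Chrna2 AW549877 (0.928), Tmem192 (0.928) and Gm10044 (0.909). All points share a library with the gene they are compared with.

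The share of the family's TPM held by Chrna3, Chrna5 and Chrnb4 together ran from 0.826% in C1 to 75.1% in C3. In C3, C6 and A1 Chrna3 was the highest of the 10 genes, and in the other 9 mice Chrnb1 was. The TPM summed over the family ran from 7.27 in A5 to 42.1 in C3.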
